A study of Mus musculus with 12 samples.

Results

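The 10 genes described here move phosphate across kidney cell membranes or set the hormones that control it: the sodium-phosphate cotransporters Slc34a1, Slc34a2, Slc34a3, Slc20a1 and Slc20a2, the FGF23 co-receptor Kl (klotho) and its receptor kinase Fgfr1, the vitamin D receptor Vdr, and the vitamin D hydroxylases Cyp27b1 and Cyp24a1. They were taken by gene symbol from the deposited gene table, which lists 55487 gene IDs, and each of the 10 symbols matched 1 ID. All 10 passed the filter on low counts and were among the 19890 genes tested.

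RNA was sequenced from whole mouse kidneys at postnatal day 15, with 3 libraries in each of 4 groups. The groups were Pkd1 knockout (Pkd1 KO), Pkd1 controls, Cep120 knockout (Cep120 KO) and Cep120 controls, all from lines named for Hoxb7, whose Cre transgene acts in the ureteric bud and the collecting duct it forms. Knockout libraries have homo in their titles and KO as genotype, whereas control libraries have het in their titles and WT as genotype, so whether a control carried 1 deleted allele or none cannot be told apart from the labels. Pkd1 encodes polycystin-1, which is lost in polycystic kidney disease, and Cep120 encodes a centriole protein needed for centrosome and cilium assembly. The study set both knockouts beside each other to compare the pathways changed in the 2 forms of cystic kidney.

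As background, filtered phosphate is taken back almost entirely in the proximal tubule, by Slc34a1 and Slc34a3 in the brush border. Parathyroid hormone and FGF23, a hormone from bone that needs klotho beside an FGF receptor, remove these transporters from the membrane. In the same tubule Cyp27b1 makes active vitamin D, which acts through Vdr, and Cyp24a1 breaks it down. Kl is best known from the distal convoluted tubule and is also expressed in the proximal tubule. Neither tubule descends from the ureteric bud, in which Hoxb7-Cre acts.

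Summed gene counts per library ran between 23070736 and 31837973. The 2 targeted genes did not check the labels: Pkd1 was at 36.4, 26.1 and 23.8 CPM (counts scaled to the library's effective size) in the libraries labelled Pkd1 KO, against 16.0, 13.9 and 21.6 CPM in Pkd1 controls. Cep120 was at 16.6, 20.3 and 16.6 CPM in the libraries labelled Cep120 KO, against 16.2, 18.7 and 13.7 CPM in Cep120 controls. Pkd1 was thus higher in every Pkd1 KO library than in every Pkd1 control. In whole kidney most cells lie outside the collecting duct, and these counts cover whole genes, not the deleted exons. The part of either in these levels was not tested. Libraries stood apart in 3 ways. The X inactivation transcript Xist stayed below 1 CPM in all 3 Pkd1 KO libraries and in Cep120 KO 1 and 2 and between 49.9 and 184 CPM in the other 7, so knockout and Xist state cannot be told apart within the Pkd1 line. Within groups Xist state varied only among the Cep120 KO libraries. A fit with Xist state as a term thus rests on Cep120 KO 3 against Cep120 KO 1 and 2, carried over to the Pkd1 line. The number of genes detected was between 30289 and 32705 in the 3 Cep120 KO libraries, Cep120 controls 1 and 2 and Pkd1 control 3, and between 23532 and 25652 in the other 6. Pkd1 KO 3 held 1612 CPM of adrenal cortex markers in sum, against at most 4.36 CPM in the other 11 libraries. No label states that each library is a separate animal, so p-values measure the spread between libraries, which may in part be technical.

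In Pkd1 KO kidneys 6 of the 10 genes passed the test, against 44.4% of all genes tested, so the count itself is not far from the background. A gene is called where its adjusted p in edgeR's quasi-likelihood test, corrected over all 19890 genes, is under 0.05. Slc34a1, Slc34a3, Kl and Vdr were lower (4 of 10, against 22.4% of all genes), and Fgfr1 and Cyp24a1 were higher (2 of 10, against 22.1%). The sizes were uneven, with log2 fold changes between -6.47 and 1.37 and a median of 0.09, against -0.04 over all genes. The CPM of the 2 groups did not overlap for 6 of the 10 genes, against 53.0% of all genes, 2 of them higher and 4 lower in Pkd1 KO kidneys, against 27.4% and 25.5%. In Cep120 KO kidneys none of the 10 passed, against 0% of all genes by edgeR: 1201 genes had an unadjusted p under 0.05, DESeq2 called 21 and voom called 0. There 2 genes did not overlap in CPM, against 16.5% of all genes, 2 higher and 0 lower, against 8.64% and 7.88%. The median log2 fold change of the 10 was 0.04, against 0.01 over all genes.

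**Figure D1:**
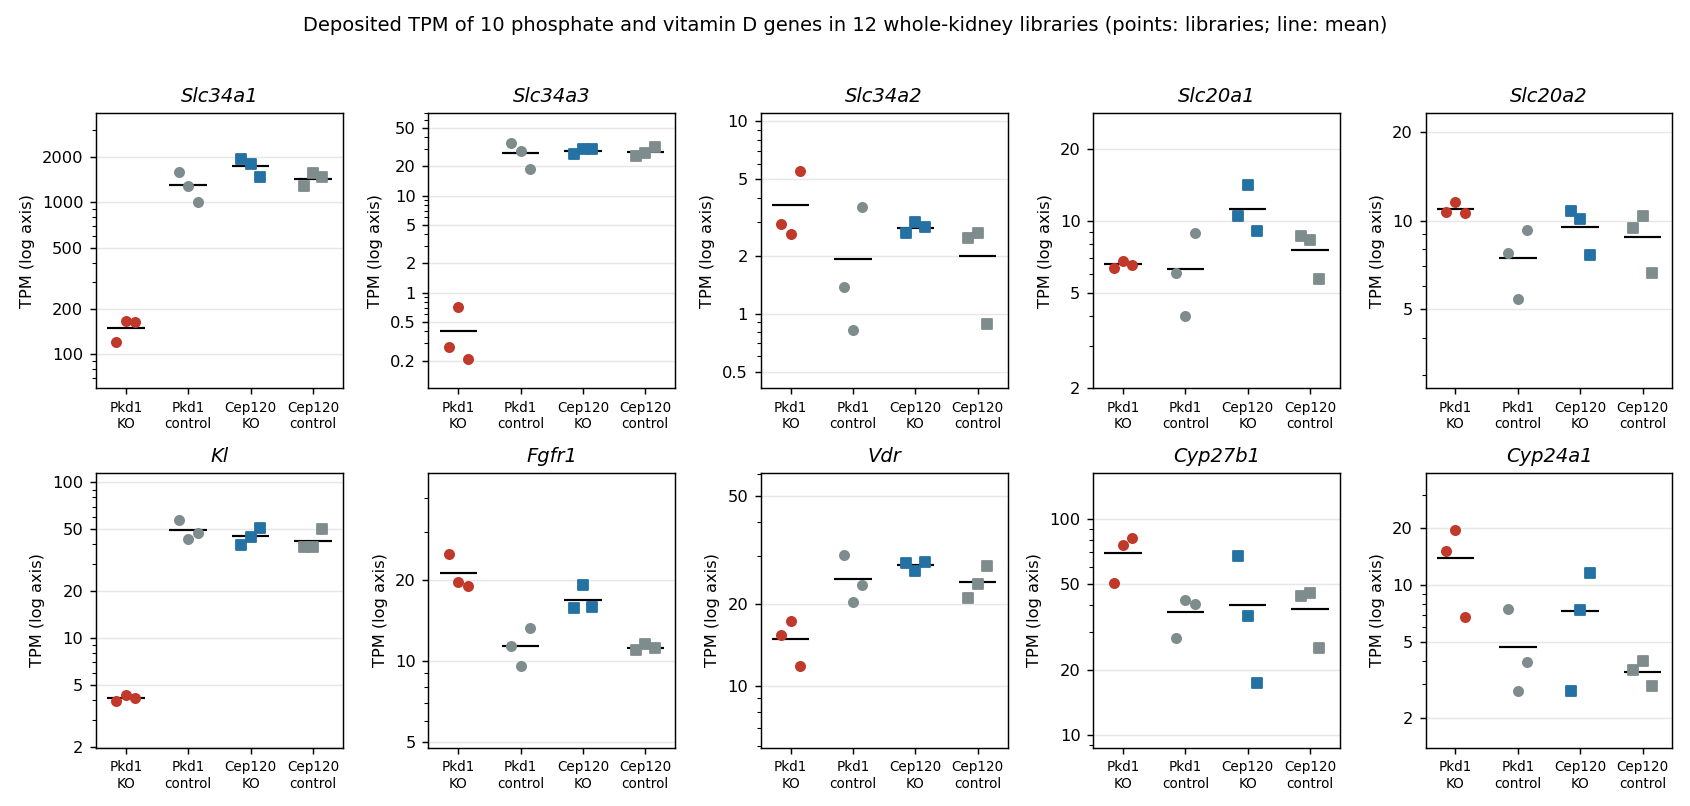
Deposited TPM (transcript level scaled for length and library, log axis) of the 10 genes in each of the 12 libraries, with the group mean as a line. Slc34a1, Slc34a3 and Kl lay lower in all 3 Pkd1 KO libraries than in the other 9, while Cyp27b1 and Cyp24a1 spread widely within groups.

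Stretches of sequence before 3 of the genes are shown. All 3 genes are expressed in the proximal tubule, although Kl is best known from the distal convoluted tubule. Slc34a1 and Kl were called lower in Pkd1 KO kidneys, and Cyp27b1 did not pass the test. Each line gives the 250 bases before the RefSeq gene start (build GRCm38.p6), 5′ to 3′, with capitals for any of 5 strings searched on both strands: GTTAAT, 1 arm of the site of the tubule factor HNF1; AGGTCA and AGTTCA, single arms of nuclear receptor sites; and TATAAA and TATATA, forms of the TATA box. The stretch of Slc34a1 lies at chr13:55399398-55399647 on the plus strand, that of Kl at chr5:150952357-150952606 on the plus strand and that of Cyp27b1 at chr10:127047996-127048245 on the plus strand.
Slc34a1: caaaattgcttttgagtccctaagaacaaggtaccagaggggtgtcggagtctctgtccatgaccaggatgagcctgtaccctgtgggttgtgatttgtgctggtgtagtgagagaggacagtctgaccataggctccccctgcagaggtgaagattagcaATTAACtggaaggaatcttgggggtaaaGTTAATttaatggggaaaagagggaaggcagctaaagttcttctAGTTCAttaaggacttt
Kl: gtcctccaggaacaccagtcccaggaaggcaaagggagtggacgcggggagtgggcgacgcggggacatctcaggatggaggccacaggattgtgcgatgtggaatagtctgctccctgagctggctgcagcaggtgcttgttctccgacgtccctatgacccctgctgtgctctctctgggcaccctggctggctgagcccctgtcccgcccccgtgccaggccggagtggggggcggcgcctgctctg
Cyp27b1: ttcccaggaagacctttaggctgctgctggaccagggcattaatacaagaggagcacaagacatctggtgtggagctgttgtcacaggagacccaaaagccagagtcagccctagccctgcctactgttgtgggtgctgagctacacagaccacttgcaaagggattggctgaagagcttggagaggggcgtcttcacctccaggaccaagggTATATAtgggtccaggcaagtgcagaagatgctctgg
The Slc34a1 stretch held GTTAAT once on each strand, beginning 89 and 61 bases before the start, and AGTTCA 17 bases before it. GTTAAT occurred in 6.52% and AGTTCA in 11.9% of 27025 mouse gene windows of the same length. The Cyp27b1 stretch held TATATA 37 bases before the start, as did 5.56% of windows somewhere along their length, and the Kl stretch held none of the 5 strings. AGGTCA and TATAAA occurred in 13.8% and 13% of windows and in none of the 3. The start used for Slc34a1 is RefSeq's: it lies inside the gene of the GENCODE annotation, whose locus begins at 55398187, and no GENCODE transcript held the bases just after it. Sequences were found for 7 of the 10 genes, and the other 4 of those are not printed.

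Slc34a1 encodes the main phosphate carrier of the proximal brush border and was the most abundant of the 10 genes per length in every group. Its level was 120.0, 166.0 and 162.4 TPM in Pkd1 KO libraries, against 1594, 1277 and 1002 TPM in Pkd1 controls. The highest knockout library was thus far under the lowest control, and the groups did not overlap. The log2 fold change was -3.32 ± 0.25 (SE, n = 3 libraries each; edgeR adjusted p = 1.405e-06), or 9.997-fold lower. In Cep120 KO libraries it was at 1926, 1790 and 1475 TPM, against 1277, 1553 and 1465 TPM in Cep120 controls. These groups overlapped, and the log2 fold change of 0.05 did not pass the test (edgeR adjusted p = 0.9643; 95% interval -0.44 to 0.54). Exons of Pfn3 overlap those of Slc34a1 on the opposite strand, and Pfn3 was at most 7.99 CPM in any library.

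Slc34a3 encodes the second brush border carrier, whose loss in people causes a hereditary form of hypophosphatemic rickets with high urinary calcium. It had the lowest fold change of the 10. It was at 0.279, 0.712 and 0.208 TPM in Pkd1 KO libraries, against 35.2, 29.0 and 18.6 TPM in Pkd1 controls. The knockout values rest on 14, 19 and 10 counts, against 1562, 1073 and 670 counts in the controls. The log2 fold change was -6.47 ± 0.34 (SE, n = 3 each; edgeR adjusted p = 1.711e-07), 88.5-fold lower, and only 35 of the 19890 genes had a lower one. Cep120 KO libraries held 26.5, 30.3 and 30.4 TPM, against 25.7, 27.3 and 31.5 TPM in Cep120 controls, a log2 fold change of -0.08 (edgeR adjusted p = 0.9395; 95% interval -0.60 to 0.43). The ratio of these group means, knockout over control, was 1.03 in TPM and 0.94 in CPM. No Pkd1 KO library held more than 19 counts of Slc34a3, whereas the Cep120 KO libraries lay inside the range of their controls. Because Slc34a3 was lower by a larger factor than Slc34a1, the ratio of Slc34a1 to Slc34a3 in TPM was 430, 233 and 781 in Pkd1 KO libraries, against 45.3, 44.0 and 53.8 in Pkd1 controls. It lay between 48.5 and 72.5 in Cep120 KO libraries and between 46.5 and 56.9 in Cep120 controls.

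Slc34a2, the family member best known from lung and intestine, was at 2.93, 2.60 and 5.49 TPM in Pkd1 KO libraries, against 1.38, 0.820 and 3.57 TPM in Pkd1 controls. The groups overlapped through Pkd1 control 3, and the log2 fold change of 0.80 ± 0.42 (SE, n = 3 each) did not pass the test (edgeR adjusted p = 0.1411). Its level among controls went with the number of genes detected: the 3 control libraries with more genes detected had 2.47, 2.62 and 3.57 TPM, and the 3 with fewer had 1.38, 0.820 and 0.881 TPM. Without Pkd1 control 3, the one library of that line with more genes detected, the log2 fold change was 1.39 and passed (edgeR adjusted p = 0.01371), as it did in a fit with a term for the 2 classes of detected genes (log2 fold change 1.39, edgeR adjusted p = 0.0009229). Without Pkd1 KO 3, the knockout library with most Slc34a2, it was 0.37 (edgeR adjusted p = 0.5227), and without Pkd1 control 2 it was 0.51 (0.3692). In Cep120 KO libraries Slc34a2 was at 2.61, 2.98 and 2.80 TPM, against 2.47, 2.62 and 0.881 TPM in Cep120 controls, with no call (log2 fold change 0.32, edgeR adjusted p = 0.8616).

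The Slc20 carriers are present in most cell types and serve the phosphate needs of the cell itself. Slc20a1 was at 6.37, 6.78 and 6.55 TPM in Pkd1 KO libraries, against 6.04, 3.99 and 8.85 TPM in Pkd1 controls. The knockout values lay inside the control range (log2 fold change -0.17, edgeR adjusted p = 0.437; 95% interval -0.55 to 0.20). The ratio of group means, knockout over control, was 1.04 in TPM and 0.89 in CPM. In Cep120 KO libraries Slc20a1 was at 10.5, 14.1 and 9.07 TPM, against 8.65, 8.29 and 5.70 TPM in Cep120 controls. These groups did not overlap, yet the log2 fold change of 0.41 ± 0.17 (SE, n = 3 each) had an edgeR adjusted p of 0.7571. Slc20a2, whose loss in people causes calcification in the brain, was at 10.7, 11.6 and 10.6 TPM in Pkd1 KO libraries, against 7.74, 5.41 and 9.28 TPM in Pkd1 controls. The groups did not overlap, and the log2 fold change of 0.35 ± 0.15 (SE, n = 3 each) missed the threshold (edgeR adjusted p = 0.06494). It passed with the term for detected genes (0.45, edgeR adjusted p = 0.01452), whereas with Xist state as a term it was -0.035 (0.9446). Slc20a2 was at 10.7, 10.1 and 7.65 TPM in Cep120 KO libraries, against 9.42, 10.4 and 6.64 TPM in Cep120 controls, where the groups overlapped. Each Slc20 gene shares exon sequence with genes on the opposite strand, and of these Smim19, which overlaps Slc20a2, was the highest at up to 12.9 CPM.

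The 5 carriers together added up to 171 ± 26.7 TPM in Pkd1 KO kidneys, against 1334 ± 302 TPM in Pkd1 controls (SD, n = 3 each). They added up to 1783 ± 232 TPM in Cep120 KO kidneys, against 1478 ± 142 TPM in Cep120 controls. Slc34a1 made up between 85.5% and 88.5% of the sum in Pkd1 KO libraries, against 96.1% to 97.0% in Pkd1 controls. It made up 96.7% to 97.5% in Cep120 KO libraries and 96.5% to 97.0% in Cep120 controls. Although it was lower, Slc34a1 thus made up most of the phosphate carrier transcripts in Pkd1 KO kidneys as well.

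The order of the 10 genes by mean TPM differed between the groups. In Pkd1 KO kidneys it was Slc34a1, Cyp27b1, Fgfr1, Vdr, Cyp24a1, Slc20a2, Slc20a1, Kl, Slc34a2 and Slc34a3, where the range of Cyp24a1 overlapped those of Fgfr1, Vdr and Slc20a2, and that of Kl overlapped that of Slc34a2. In Pkd1 controls it was Slc34a1, Kl, Cyp27b1, Slc34a3, Vdr, Fgfr1, Slc20a2, Slc20a1, Cyp24a1 and Slc34a2, where the ranges of neighbours overlapped for Cyp27b1 with Slc34a3, for Slc34a3 with Vdr and among the 4 lowest. Cep120 KO kidneys and Cep120 controls had the order of Pkd1 controls over the first 6 genes, with Slc20a1 above Slc20a2 in Cep120 KO kidneys.

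Kl, which turns FGF receptors into receptors for FGF23, was at 3.97, 4.34 and 4.13 TPM in Pkd1 KO libraries, against 57.6, 43.0 and 47.1 TPM in Pkd1 controls. The 3 knockout values were close to each other and far under every control. The log2 fold change was -3.79 ± 0.19 (SE, n = 3 each; edgeR adjusted p = 1.603e-07), 13.8-fold lower. Cep120 KO libraries held 39.7, 44.4 and 50.9 TPM, against 38.3, 38.3 and 50.3 TPM in Cep120 controls, with a log2 fold change of -0.10 (edgeR adjusted p = 0.8963; 95% interval -0.46 to 0.27). Among the 10 genes in order of mean TPM, Kl was second in both control groups and in Cep120 KO kidneys and eighth in Pkd1 KO kidneys.

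Fgfr1, the receptor kinase with which klotho binds FGF23 and which stromal cells also express, went the other way. It was at 24.8, 19.6 and 18.9 TPM in Pkd1 KO libraries, against 11.3, 9.56 and 13.3 TPM in Pkd1 controls. The groups did not overlap, and the log2 fold change was 0.67 ± 0.11 (SE, n = 3 each; edgeR adjusted p = 0.0003484). Markers of other cells were also higher in Pkd1 KO kidneys. Of 8 fibroblast and pericyte genes, 6 were called higher, against 22.1% of all genes, and 0 lower, against 22.4%. The summed levels of these cells' markers were between 4016 and 6901 CPM, against 1561 to 2605 CPM in Pkd1 controls. None of the 8 was at 0 in any library. The part of these cells in the Fgfr1 result was not tested. With Xist state as a term the log2 fold change was 0.64 and the call was lost (edgeR adjusted p = 0.07244). In Cep120 KO libraries Fgfr1 was at 15.7, 19.1 and 15.8 TPM, against 11.0, 11.5 and 11.2 TPM in Cep120 controls. All 3 knockout libraries were above all 3 controls, as were those of 8.64% of all genes, and the log2 fold change of 0.41 ± 0.11 (SE, n = 3 each; unadjusted p = 0.002574) failed the correction over all genes (edgeR adjusted p = 0.7571).

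Vdr, the nuclear receptor for active vitamin D, was at 15.4, 17.3 and 11.8 TPM in Pkd1 KO libraries, against 30.3, 20.4 and 23.4 TPM in Pkd1 controls. The groups did not overlap, and the log2 fold change was -0.91 ± 0.19 (SE, n = 3 each; edgeR adjusted p = 0.002036), 1.88-fold lower. With Xist state as a term it was -0.78 and the call was lost (edgeR adjusted p = 0.195). In Cep120 KO libraries it was at 28.2, 26.5 and 28.5 TPM, against 21.0, 23.6 and 27.5 TPM in Cep120 controls, with a log2 fold change of 0.03 (edgeR adjusted p = 0.9782; 95% interval -0.38 to 0.44).

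Cyp27b1 encodes the 1-alpha-hydroxylase that makes active vitamin D. It was at 50.2, 75.7 and 81.4 TPM in Pkd1 KO libraries, against 28.2, 42.02 and 40.4 TPM in Pkd1 controls. In TPM the groups did not overlap, whereas in CPM they did (92.8, 149 and 152 CPM, against 59.5, 110 and 76.3 CPM), and the log2 fold change of 0.69 ± 0.40 (SE, n = 3 each) did not pass (edgeR adjusted p = 0.1765; 95% interval -0.18 to 1.55). With Xist state as a term the log2 fold change was -0.84 (edgeR adjusted p = 0.3826), so its direction rests on how that state is handled. With no filter on low counts it was 0.69 and passed (edgeR adjusted p = 7.123e-05). Cep120 KO libraries spread over 67.3, 35.3 and 17.5 TPM, against 43.7, 45.5 and 25.2 TPM in Cep120 controls, and the library with Xist was the lowest of the 3 knockouts. The group means were 40.0 TPM in Cep120 KO kidneys and 38.1 TPM in Cep120 controls, a ratio of 1.05, against 0.93 in CPM. The log2 fold change was -0.10 (edgeR adjusted p = 0.9618; 95% interval -0.96 to 0.76). A change smaller than this interval was not detectable with these libraries.

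Cyp24a1 encodes the 24-hydroxylase that inactivates vitamin D, and its gene is itself a classical target of Vdr. It was at 15.3, 19.7 and 6.84 TPM in Pkd1 KO libraries, against 7.47, 2.78 and 3.96 TPM in Pkd1 controls. The groups overlapped through Pkd1 KO 3 and Pkd1 control 1, and the log2 fold change of 1.37 ± 0.48 (SE, n = 3 each) passed narrowly (edgeR adjusted p = 0.03375). The call was lost without Pkd1 KO 1 (edgeR adjusted p = 0.07864), Pkd1 KO 2 (0.1451), Pkd1 control 2 (0.1112) or Pkd1 control 3 (0.104). In Cep120 KO libraries Cyp24a1 was at 2.78, 7.43 and 11.7 TPM, against 3.56, 3.999 and 2.95 TPM in Cep120 controls. Its log2 fold change of 0.89 ± 0.48 (SE, n = 3 each) was not called (edgeR adjusted p = 0.7571). Exons of Pfdn4, which was at 12.9 to 25.2 CPM over the 12 libraries, overlap those of Cyp24a1 on the opposite strand, so reads of the pair may be uncertain.

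The 2 hydroxylases stood in opposite order across the Cep120 KO libraries and also across the Pkd1 controls. In each of these groups the library with most Cyp27b1 had least Cyp24a1 and the one with least Cyp27b1 had most Cyp24a1. In Cep120 controls the 2 stood in the same order, and in Pkd1 KO libraries in neither. The ratio of Cyp27b1 to Cyp24a1 in TPM was 24.2, 4.75 and 1.49 in Cep120 KO libraries, against 12.3, 11.4 and 8.57 in Cep120 controls. It was 3.28, 3.85 and 11.9 in Pkd1 KO libraries, against 3.78, 15.1 and 10.2 in Pkd1 controls. The ratio spread more within the Cep120 KO group, and within both Pkd1 groups, than between the means of any of the 4 groups. In 3 libraries no correlation was computed.

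**Figure D2:**
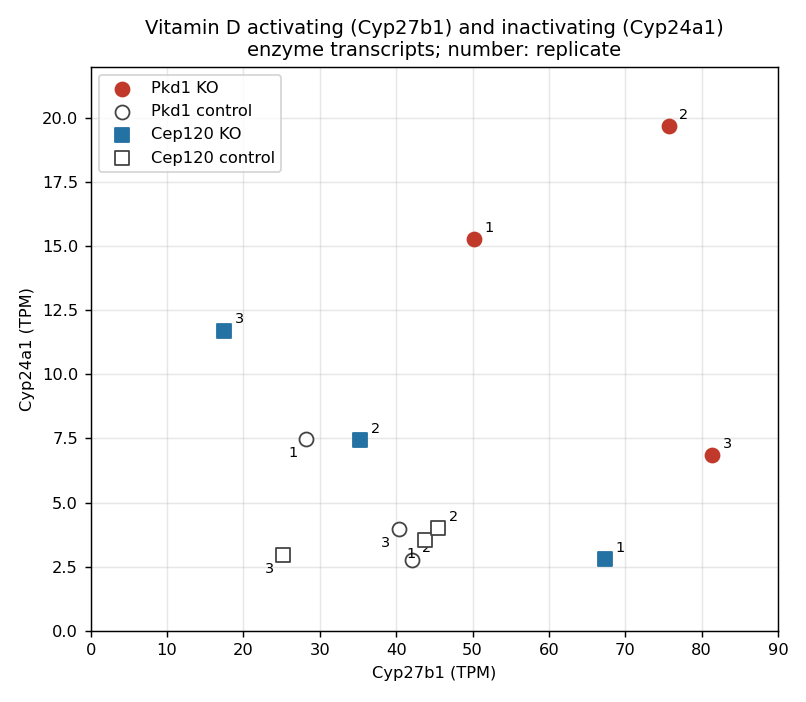
Cyp24a1 against Cyp27b1, both in deposited TPM, with 1 point per library and the replicate number beside it. Pkd1 KO libraries lie between 50.2 and 81.4 TPM of Cyp27b1, a range that also holds Cep120 KO 1 at 67.3 TPM. The 3 Cep120 KO libraries run from high Cyp27b1 with low Cyp24a1 to the reverse, as do the Pkd1 controls over a smaller range.

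The effects of the 2 knockouts were compared in the same fit as a difference of log2 fold changes, Pkd1 minus Cep120. The difference passed the test for 4 of the 10 genes, all 4 negative, against 28.1% of all genes and 14.2% in that direction. It was -3.37 for Slc34a1 (edgeR adjusted p = 3.59e-05), -6.38 for Slc34a3 (3.096e-06), -3.69 for Kl (3.567e-06) and -0.94 for Vdr (0.02151). The Vdr difference lost its call without Pkd1 control 1, Cep120 control 1 or Cep120 control 2, with adjusted p-values of up to 0.0578 (edgeR). It was also lost with Cep120 controls 1 and 2 summed as 1 library (-0.85, edgeR adjusted p = 0.05748) and with Xist state as a term (-0.89, 0.05002). For Fgfr1, which was higher in both knockouts than in their controls, the difference was 0.26 and did not pass (edgeR adjusted p = 0.2195; 95% interval -0.07 to 0.60). For Cyp24a1 it was 0.48 (0.623; 95% interval -0.98 to 1.93) and for Cyp27b1 0.79 (0.3098; 95% interval -0.43 to 2.002), intervals too wide to tell equal from unequal effects. The differences of -0.59 for Slc20a1, 0.44 for Slc20a2 and 0.48 for Slc34a2 did not pass (edgeR adjusted p = 0.0907, 0.1223 and 0.5759). With the term for detected genes the last 2 passed, at 0.62 for Slc20a2 (edgeR adjusted p = 0.03056) and 1.41 for Slc34a2 (0.01651), as they did without both replicate 3 controls.

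**Figure D3:**
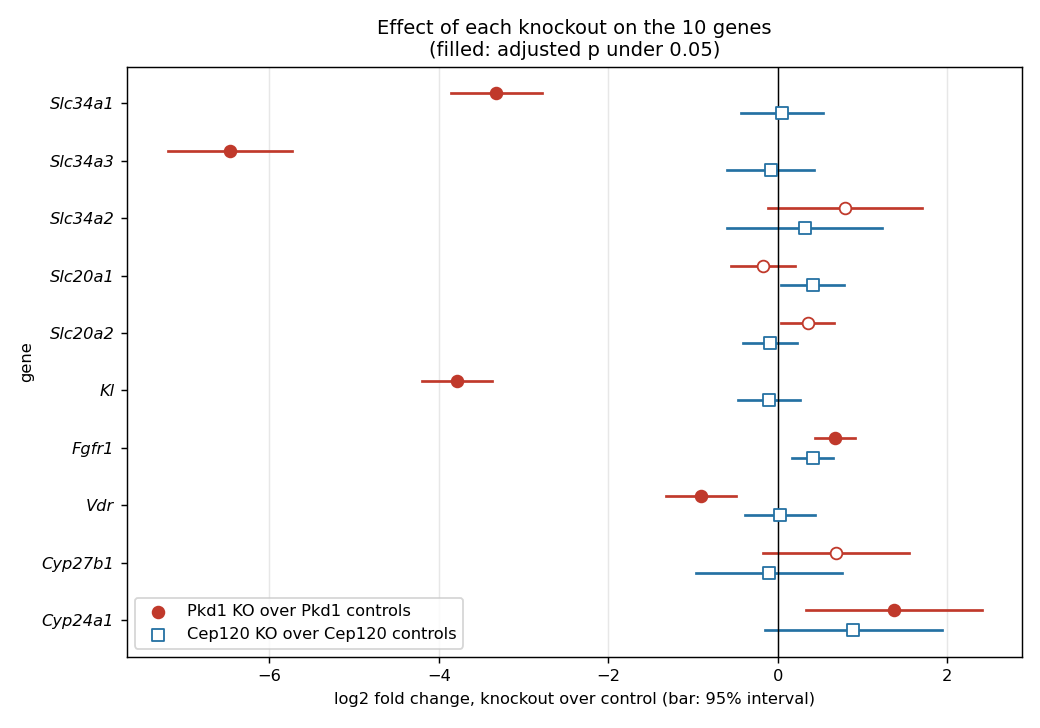
Log2 fold change of each gene, knockout over control, for the Pkd1 line (circles) and the Cep120 line (squares), with 95% intervals as bars and filled symbols for calls. Slc34a3, Kl and Slc34a1 stand at -6.47, -3.79 and -3.32 in the Pkd1 line and within 0.10 of 0 in the Cep120 line.

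Markers of the proximal tubule, in which Slc34a1, Slc34a3 and Cyp27b1 are expressed, were lower as well. Of all genes 22.4% were called lower in Pkd1 KO kidneys, and of 20 proximal tubule markers all 20 were. Their log2 fold changes had a median of -1.81 and ran between -4.85 and -1.02, and their summed level was 2621 to 3964 CPM, against 10658 to 16429 CPM in Pkd1 controls. The lowest p-values were those of the organic anion carrier Slc22a8 (-2.96), the dicarboxylate carrier Slc13a3 (-3.46), the inositol oxygenase Miox (-4.75) and the glucose carrier Slc5a2 (-4.85). In bulk kidney fewer cells of a type and less RNA per cell cannot be told apart. None of the 20 had a lower log2 fold change than Slc34a3, 3 had a lower one than Kl and 4 a lower one than Slc34a1. In Cep120 KO kidneys, where 0% of all genes were called, none of the 20 was called, with a median of -0.17.

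Each library's log2 CPM of a gene was also set against the mean log2 CPM of those 20 markers. On this scale Slc34a3 was at -7.05 ± 0.45 in Pkd1 KO libraries, against -3.04 ± 0.37 in Pkd1 controls, a difference of -4.01 (SD, n = 3 each; exact two-sided permutation p = 0.1, the smallest that 3 against 3 allow). Kl differed by -1.55 and Slc34a1 by -1.06, so these 3 were lower also beside the average proximal marker. Cyp27b1 stood at 0.83 ± 0.10 in Pkd1 KO libraries, against -2.10 ± 0.49 in Pkd1 controls, a difference of 2.93, and Cyp24a1 and Vdr differed by 3.56 and 1.32. For each of these 6 genes the groups did not overlap and the exact permutation p was 0.1. The list mean itself was 5.82, 6.36 and 6.34 log2 CPM in Pkd1 KO libraries, against 8.55, 8.54 and 8.13 in Pkd1 controls. A gene that did not change thus comes out higher on this scale, and so did Vdr, which was called lower by itself. For Cyp27b1, Cyp24a1 and Vdr the lack of overlap and the permutation p therefore say little about the genes themselves. The share of all genes without overlap on this scale was not computed. In the Cep120 line the 6 differences lay between -0.16 and 0.79, with exact permutation p-values of 0.3 to 1.

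**Figure D4:**
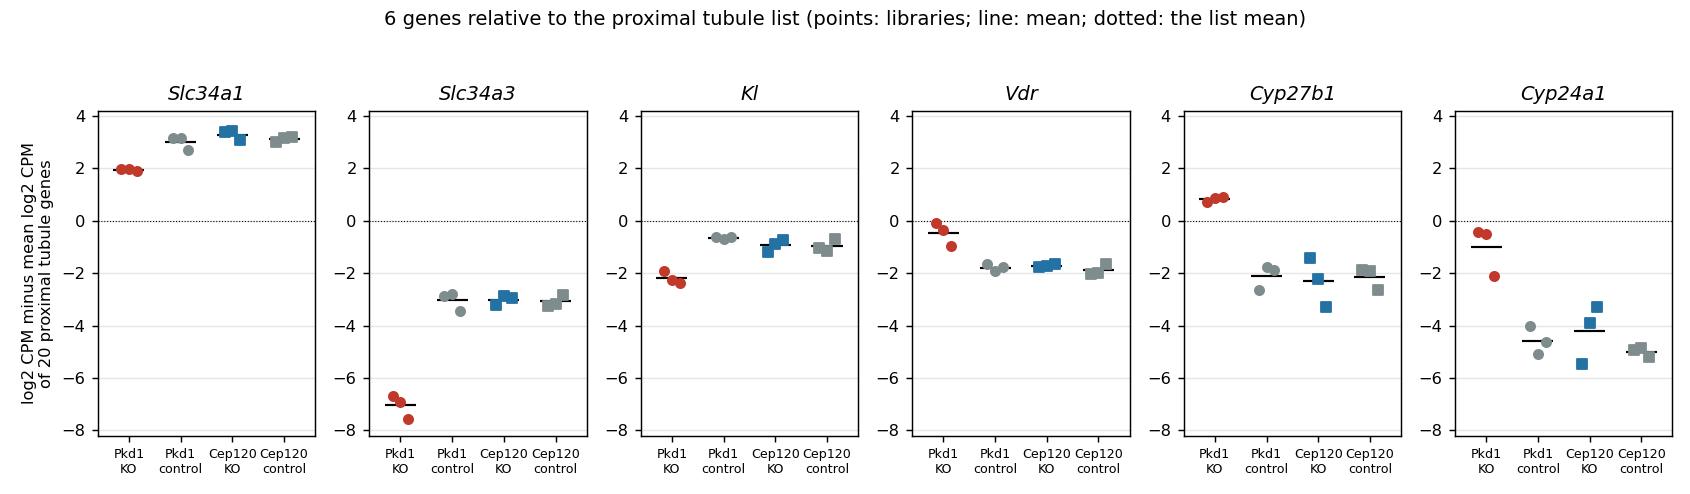
Log2 CPM of 6 genes minus the mean log2 CPM of 20 proximal tubule markers, per library, with group means as lines. In the Pkd1 KO libraries Slc34a1, Slc34a3 and Kl sit lower, and Vdr, Cyp27b1 and Cyp24a1 higher, than in the other 9 libraries. The mean of the markers that is subtracted is itself lower in the Pkd1 KO libraries.

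Of 12 tested genes of phosphate transport and its control, 8 were called lower in Pkd1 KO kidneys, against 22.4% of all genes, and 0 higher, with a median log2 fold change of -1.16. The other 4 did not pass, and 2 of them had a log2 fold change above 0. Pth1r, the receptor for parathyroid hormone, was at 35.8 ± 3.73 CPM in Pkd1 KO kidneys, against 189 ± 20.4 CPM in Pkd1 controls (SD, n = 3 each), a log2 fold change of -2.40. Pdzk1, a scaffold that holds Slc34a1 in the brush border, was at 238 ± 56.0 CPM in Pkd1 KO kidneys, against 1762 ± 471 CPM in Pkd1 controls (-2.89). Alpl, the alkaline phosphatase that frees phosphate, had a log2 fold change of -2.21, and Xpr1, the phosphate exporter, of -1.01, with 19.3 ± 1.67 CPM in Pkd1 KO kidneys, against 38.8 ± 1.58 CPM in Pkd1 controls. The hormone receptor, the scaffold and the exporter were thus lower in the same kidneys as Slc34a1 and Slc34a3.

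Genes of FGF23 signalling and FGF feedback were split, with a median of 0.42. Of 13 genes, 5 were called higher, against 22.1% of all genes, and 2 lower, against 22.4%. Fgfr3 and Fgfr4, receptors that can also pair with klotho, both had log2 fold changes of -1.48. Fgfr3 was at 10.6 ± 0.40 CPM in Pkd1 KO kidneys, against 29.5 ± 1.61 CPM in Pkd1 controls (SD, n = 3 each). Galnt3, the glycosyltransferase that protects FGF23 from cleavage, was at 48.5 ± 4.25 CPM in Pkd1 KO kidneys, against 20.7 ± 2.77 CPM in Pkd1 controls (1.23). Spry1, a feedback inhibitor of receptor kinase signalling, was at 40.3 ± 5.32 CPM in Pkd1 KO kidneys, against 19.0 ± 2.13 CPM in Pkd1 controls (1.08). Fgf23 itself was below the filter.

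Of 12 genes of vitamin D uptake, activation and receptor pairing, 5 were called lower, against 22.4% of all genes, and 0 higher, against 22.1%. In either direction 44.4% of all genes were called, so the count itself is not far from the background. The median of the 12 was -0.20. Of the 5 called, 4 belong to the endocytic machinery that retrieves filtered vitamin D with its binding protein: Cubn (cubilin, -2.76), Lrp2 (megalin, -2.72), Amn (amnionless, -1.86) and Dab2 (-0.60). Lrp2 was at 77.7 ± 13.8 CPM in Pkd1 KO kidneys, against 513 ± 47.5 CPM in Pkd1 controls (SD, n = 3 each). The fifth, Gc, which encodes the binding protein and is named after its value was seen, had a log2 fold change of -0.84.

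Active vitamin D controls distal calcium reabsorption in part. Of 8 genes of this process, 4 were called lower, against 22.4% of all genes, and 1 higher, against 22.1%. The median of the 8 was -0.74. Calb1, the calcium buffer of the distal tubule, was at 200.6 ± 66.2 CPM in Pkd1 KO kidneys, against 558 ± 43.1 CPM in Pkd1 controls (SD, n = 3 each; log2 fold change -1.48). Slc8a1, the basolateral sodium-calcium exchanger, and Casr, the calcium-sensing receptor, had log2 fold changes of -1.24 and -1.16. Trpv6, an apical calcium channel, was the exception, at 22.8 ± 1.33 CPM in Pkd1 KO kidneys, against 2.31 ± 1.37 CPM in Pkd1 controls (3.30). None of the genes of these 4 lists was called in Cep120 KO kidneys, where 0% of all genes were called. The medians there were -0.07 for phosphate transport, 0.18 for FGF23 signalling, -0.07 for vitamin D and 0.14 for distal calcium.

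**Figure D5:**
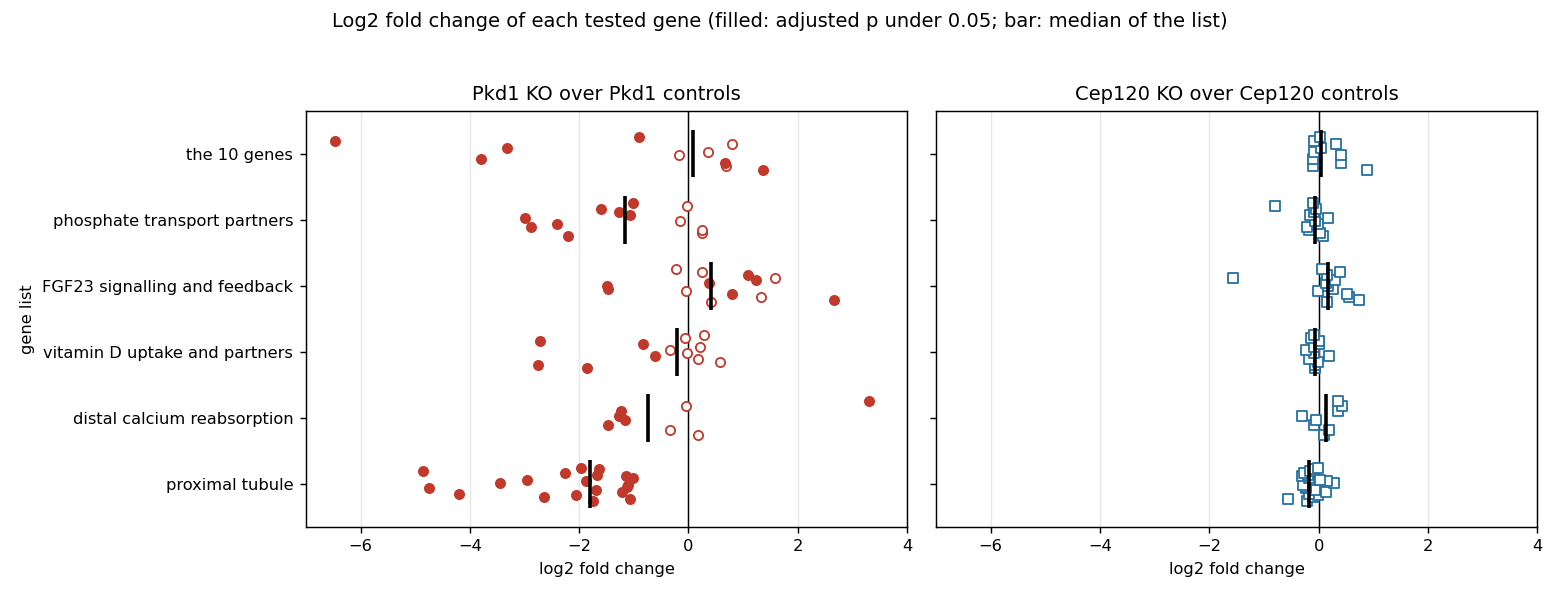
Log2 fold change of every tested gene in 6 lists, in Pkd1 KO over Pkd1 controls (left) and Cep120 KO over Cep120 controls (right), with filled symbols for calls and bars for list medians. In the Pkd1 line the medians are -1.16 for phosphate partners and -1.81 for proximal markers. In the Cep120 line no gene of the lists is called, as is no gene of all tested.

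Markers of other cell types moved in Pkd1 KO kidneys too, in both directions. Called lower were 5 of 6 proximal straight segment genes (1 higher), 6 of 7 thick ascending limb genes, 7 of 8 distal convoluted tubule genes, 4 of 7 intercalated cell genes (1 higher) and 6 of 7 endothelial genes. Called higher were 7 of 8 principal cell genes (1 lower), 10 of 10 macrophage genes and 8 of 10 genes of injured tubules. Over all genes tested 22.4% were called lower and 22.1% higher. Summed macrophage markers were 1367 to 1989 CPM in Pkd1 KO libraries, against 149 to 507 CPM in Pkd1 controls. Bone cell markers, which would mark a source of FGF23, were at most 0.88 CPM in sum in any library, and 1 of the 5 passed the filter. The 3 adrenal cortex genes that passed the filter were called higher through Pkd1 KO 3. For the 10 genes described here, leaving out Pkd1 KO 3 ended no call. None of these lists had a call in Cep120 KO kidneys, where 0% of all genes were called. The part of these shifts in the members' values was not tested.

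Transcript shares were read for the genes whose transcripts cover the gene's TPM. The main coding transcript of Slc34a1 made up 86.6% ± 1.81 of its TPM in Pkd1 KO kidneys, against 86.3% ± 2.02 in Pkd1 controls (SD, n = 3 each). It made up 88.1% ± 0.90 in Cep120 KO kidneys, against 88.8% ± 1.10 in Cep120 controls. The coding transcript of Kl made up 98.6% ± 1.09 in Pkd1 KO kidneys, against 99.3% ± 0.38 in Pkd1 controls. The coding transcript of Cyp27b1 made up 89.7% ± 1.72 in Pkd1 KO kidneys, against 83.8% ± 2.64 in Pkd1 controls, and these shares did not overlap (88.6% to 91.7% in Pkd1 KO libraries, against 80.8% to 85.4% in Pkd1 controls). It made up 85.9% ± 3.22 in Cep120 KO kidneys, against 88.3% ± 0.85 in Cep120 controls. The range of these controls, 87.4% to 89.1%, overlapped that of the Pkd1 KO libraries. Nearly all of the rest of Cyp27b1 was a transcript annotated as a target of nonsense-mediated decay. The share of all transcripts without overlap was not computed. Slc20a1 was divided mostly between 2 coding transcripts whose shares spread widely within groups: the one that led by mean in both Pkd1 groups made up 55.4% ± 26.1 in Pkd1 KO kidneys, against 65.6% ± 19.3 in Pkd1 controls, and 31.1% ± 15.9 in Cep120 KO kidneys, against 42.5% ± 16.6 in Cep120 controls. The coding transcript of Slc34a3 made up 72.2% ± 2.23 in Pkd1 controls, with a transcript annotated as processed next. The Pkd1 KO shares, between 34.6% and 100%, rest on too few counts to compare. Vdr and Fgfr1 were not described by transcript. Per library, the transcripts used here cover only 0.35% to 3.10% of Vdr TPM and 85.2% to 96.2% of Fgfr1 TPM.

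The genes most like each member across the 12 libraries were ranked by the root mean square difference of log2 CPM, each gene centred on its own mean, among 12022 genes. Slc34a1 was closest to Igfals (0.14), Pdzrn4 and Slc13a3, and Kl to Paqr9 (0.10), Fmo1 and Agxt2. Slc34a3 was closest to Egf (0.52), Slc22a7 and Slc5a2, at a larger distance than for the other phosphate carriers. Cyp27b1 was closest to Cyp4a14 (0.37), Acat3 and Angptl4, and Cyp24a1 to Npr3 (0.49), Gask1b and Scube2. Vdr was closest to Pkp4 (0.14), Fgfr1 to Mast2 (0.09), Slc20a1 to Ccnt2 (0.10), Slc20a2 to Stx2 (0.09) and Slc34a2 to Cage1 (0.23). All distances share the same libraries and the same depth and are given as descriptions.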

How the data were processed

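Whole-kidney RNA of 12 mouse libraries was ground, lysed in Trizol and made into cDNA with a SMARTer Ultra Low kit, per the labels' protocols. Per the submitters' processing notes, Salmon 0.8.2, featureCounts 1.4.6-p5 of Subread, STAR 2.5.1a and bcl2fastq are named along with mm9, with no role stated for any. The strand setting of counting was not given in the sources used here. The deposited gene table holds estimated counts (21.6% of genes not whole), which were rounded, and 287 of its 55774 lines, which repeat an ID, were dropped. The deposited TPM, per gene and per transcript, were used as given, and the authors' moderated log2 CPM served as an alternative only. Other deposited scalings were not used here.

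Groups were read from titles and genotype labels. One edgeR 4.0.16 quasi-likelihood fit (R 4.3.3; TMM scaling, filterByExpr, 12 libraries, 4 groups, no covariate) gave log2 fold changes, SE and Benjamini-Hochberg adjusted p over 19890 genes, with 0.05 as threshold. Log2 CPM for levels beside proximal markers used a prior count of 2. The fit was tested on simulated counts. DESeq2 1.42.0, limma 3.58.1 (voom), other scalings, filters, terms and left-out libraries were alternatives. Named genes are the 10, the 4 of each list with the lowest p in the Pkd1 comparison (given for the pathway and proximal lists), the 3 most alike of each, both targets and Xist. Pfn3, Smim19, Pfdn4, Fgf23 and Gc fall outside that rule and were named after their values were seen. The members and lists were chosen with earlier results of these data known. Libraries hold 23070736 to 31837973 counts, and with 3 per group the spread between libraries, not counting error, limits precision. Promoter sequences come from RefSeq (GRCm38.p6), exon overlaps from GENCODE M21 (GRCm38), and neither build is the one in the notes. Cep120 controls 1 and 2 differed less than other pairs (chi-square per gene 5.30, against 26.0 to 67.4) but beyond sampling noise, and were kept apart.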

Additional observations from a re-analysis of the deposited data

Results flagged for a closer look

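For 4 of the 10 genes, against 28.1% of all genes, the effect of the Pkd1 knockout differed from that of the Cep120 knockout. This was the test of the difference itself (edgeR interaction contrast, 12 libraries). The difference of log2 fold changes, Pkd1 minus Cep120, was -3.37 for Slc34a1, -6.38 for Slc34a3, -3.69 for Kl and -0.94 for Vdr. All 3 Pkd1 KO libraries were lower than all 3 Pkd1 controls for each of the 4, as for 25.5% of all genes. The Cep120 KO libraries overlapped the Cep120 controls, whereas 16.5% of all genes did not overlap there. The 4 were picked by the contrast in these same libraries, so this separation adds no support to it. Xist state was the same as knockout state in the Pkd1 line but not in the Cep120 line. Within groups it varied only between Cep120 KO 3 and Cep120 KO 1 and 2. A term for it carries that contrast over to the Pkd1 line, where it cannot be told apart from the knockout. In the fit with Xist state as a term the differences were -3.46 for Slc34a1, -6.33 for Slc34a3, -3.57 for Kl and -0.89 for Vdr, and the last no longer passed (edgeR adjusted p = 0.05002).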

How the results depend on the processing

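Over 54 results and 27 alternatives there were 870 recomputed values, of which 807 were classed as the same. For a fold change this means the same direction and side of the threshold, whatever its size. Only for counts, levels beside proximal markers and transcript shares was size compared. Fold changes so classed could thus shift: Cyp27b1 ran from -1.27 to 0.25 in the Cep120 comparison and Cyp24a1 from 0.98 to 2.68 in the Pkd1 comparison. Slc34a1, Slc34a3 and Kl kept their Pkd1 and difference calls in every alternative run. With Xist state as a term 2002 genes passed in the Pkd1 comparison, and Slc20a2 (-0.035) and Cyp27b1 (-0.84) turned; in the Cep120 comparison Slc34a1 (-0.14), Slc34a3 (0.0090) and Kl (0.12) turned. The detected-gene term turned Cep120 values of Slc34a2 (-0.013), Slc34a3 (0.19) and Kl (0.078). In the Cep120 comparison 344 genes passed with no filter, among them 1 of the 10 (Cyp24a1, 0.88), 21 with DESeq2 and 1 without both replicate 3 controls, an alternative chosen after seeing the data, which turned Slc34a3 (0.10) and Kl (0.10) there and Slc20a1 (0.032) in the Pkd1 line. Summing Cep120 controls 1 and 2 turned Vdr (-0.062), and the deposited log2 CPM turned Slc34a3 (0.069), Slc20a2 (0.041) and Kl (0.049). Calls gained were Slc34a2 (0.80, edgeR adjusted p = 0.001663) and Cyp27b1 in the Pkd1 comparison and the Cyp27b1 difference (0.81, 0.002226) with no filter, and Slc34a2 and Slc20a2 in the Pkd1 comparison and the difference with the detected-gene term and without both replicate 3 controls, where the Cyp24a1 call was lost (1.19, 0.1013). The Vdr difference was lost on summing those 2 controls and with the Xist term. The cause was not tested.

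Leaving out 1 library at a time gave 7277 to 8680 genes and 5 to 6 of the 10 in the Pkd1 comparison, 0 to 2 genes and 0 of the 10 in the Cep120 comparison, and 4225 to 5781 genes and 3 to 5 of the 10 for the difference. Values that turned were Slc20a1 in the Pkd1 line (-0.28 to 0.0088) and, in the Cep120 line, Slc34a1 (-0.066 to 0.14), Slc34a3 (-0.21 to 0.10), Slc20a2 (-0.21 to 0.026), Kl (-0.22 to 0.10), Vdr (-0.089 to 0.21) and Cyp27b1 (-0.76 to 0.25). Without Cep120 KO 1 the Cyp27b1 difference passed (1.45, edgeR adjusted p = 0.03431).

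Whether replicate numbers pair the libraries cannot be told from 3 libraries per group. Deviations of same-numbered libraries correlated at -0.10, -0.04 and -0.14 in the Pkd1 line and 0.18, -0.05 and 0.15 in the Cep120 line. Those of differently numbered libraries correlated at -0.05 to 0.13 in the Pkd1 line and -0.20 to 0.11 in the Cep120 line. With the replicate block 7804 genes and 5 of the 10 passed in the Pkd1 comparison, 0 and 0 in the Cep120 comparison and 4363 and 4 for the difference; the member lost was Cyp24a1 (1.34, edgeR adjusted p = 0.0682). Upper quartile scaling gave 2221 higher and 3427 lower genes for the difference, against 2764 and 2834, and moved the median of all genes by -0.11; the deposited log2 CPM moved it by 0.10 in the Pkd1 and 0.14 in the Cep120 comparison, and no filter by -0.40 for the difference. With 3 libraries per group, the smaller effects are hard to detect.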
